A study of Lotus japonicus with 36 samples.

Results

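Nodules of the model legume Lotus japonicus (genotype MG-20) were compared between day 6 of nitrate supply and the untreated state. The comparison uses 6 of the 36 RNA-seq libraries of the series, chosen by their titles. Group T0 (3 libraries) is nodules at 4 weeks after inoculation with no treatment, and group T6 (3 libraries) is nodules after 6 days with 10 mM KNO3. Both groups are of genotype MG-20 and of the same labelled tissue. The other 30 libraries cover nitrate days 1 to 5 (T1 to T5) and days 1 to 5 after nitrate was removed (R1 to R5), and they are used here only to show where T0 and T6 lie in the course. No untreated group of the age of T6 is used here, so nitrate and plant age cannot be told apart in this comparison. The 3 libraries of each group are biological replicates according to the series, and the labels do not say how many plants were pooled in each.

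Legume root nodules house rhizobia that reduce dinitrogen to ammonium in exchange for plant carbon. The infected cells carry large amounts of a few host proteins, among them leghemoglobins, which buffer oxygen around the bacteria. Plants with ample nitrate restrict nodulation, and nitrate given to mature nodules is known to lower nitrogen fixation and to bring on early senescence of the nodule.

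Counts were deposited for 50526 transcript models from 41299 loci, and library totals of the 6 libraries lay between 34194054 and 43808258 counts. None of the IDs could be paired with a gene name (0 matched in the RefSeq table of assembly LjGifu_v1.2, another assembly), so the labelled tissue was not checked against marker genes and models are described by level. Reads were divided over models (49.6% of the values differ from a whole number by 0.001 or more, the tolerance used throughout), so which of several similar models a change belongs to is uncertain. Levels are given in CPM, with library sizes adjusted by TMM. In bulk nodules, fewer cells of a type and less RNA per cell cannot be told apart.

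The comparison asked how far 6 days of nitrate had moved the nodule transcriptome. Of 50475 models tested, 20056 (39.7%) were called, which needed a difference of 2-fold or more and an adjusted p under 0.05 (quasi-likelihood test of edgeR). Among them 10279 were higher in T6 (20.4% of those tested) and 9777 lower (19.4%). Which direction held more calls turned with the processing (9945 higher and 10130 lower with RLE size factors). In 97.1% of the called models every library of one group lay above every library of the other. Separation of this kind was found in 32.2% of all models for T6 above T0 and in 30.9% for T6 below T0.

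More risers than fallers lay at the extremes of the fold changes. The median log2 fold change was 2.22 in called risers (quartiles 1.47 and 3.67) and -2.04 in called fallers (quartiles -3.14 and -1.44). Changes of 2 to 4-fold made up 4461 of the rises and 4770 of the falls. Changes of 8 to 32-fold were fitted for 2167 risers and 1840 fallers. At 32 to 128-fold the numbers were 799 and 581, and at 128-fold or more they were 571 and 254. Of the 571, 280 had no counts in any T0 library, and of the 254, 136 had none in any T6 library, so that the size of these fitted folds depends on the prior count. The count of such falls was 386 without T6 replicate 2, beside 534 such rises.

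Calls were most frequent among the models of at least 100 CPM. Of the 57 models that averaged 1000 CPM or more over all 36 libraries, 66.7% were called, 21 higher and 17 lower. Of the 1756 models between 100 and 1000 CPM, 57.5% were called, 38.5% higher and 19.0% lower. From 10 to 100 CPM the called share was 39.5%, from 1 to 10 CPM 41.3%, from 0.1 to 1 CPM 36.8% and below 0.1 CPM 25.7%. The lowest class did not keep this place in a fit of the 6 libraries alone, where 29 of its models passed the filter and 93.1% of these were called. The direction changed along this scale, in the same way under each alternative fit (counts summed per locus included) and without any 1 library. Between 1 and 10 CPM more models were lower (21.4%) than higher (19.9%), whereas between 10 and 100 CPM 23.6% were higher and 15.9% lower. The spread between replicates differed as well: the median coefficient of variation in T6 was 106% in the lowest class, 18.4% from 1 to 10 CPM and 11.7% from 10 to 100 CPM, beside 95.1%, 16.6% and 9.86% in T0.

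The 6 level classes, each spanning a factor of 10, describe how models moved between T0 and T6. By group mean, 31631 models (62.6%) stayed in their class, 9774 (19.3%) moved up and 9121 (18.1%) moved down. Moves of at least 2 classes were made by 1137 models upward (2.25%) and by 714 downward (1.41%). Upward moves of 3 classes numbered 149 and upward moves of 4 classes 13, whereas 45 models moved down by 3 classes and none by 4. The 0.1 CPM boundary equals 3.03 to 3.95 counts in these libraries, so the 2172 upward and 2112 downward moves between the lowest pair of classes rest on very few counts.

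Among the classes above 0.1 CPM, membership turned over most at the top. Of 80 models with at least 1000 CPM in T0, 21 (26.2%) kept that level in T6, 45 fell to between 100 and 1000 CPM, 12 to between 10 and 100 CPM and 2 to between 1 and 10 CPM. In T6 the top class held 108 models. Besides the 21 already there, 49 came from between 100 and 1000 CPM, 24 from between 10 and 100 CPM, 12 from between 1 and 10 CPM and 2 from between 0.1 and 1 CPM. The next class grew too, from 1544 models in T0 to 1944 in T6, with 782 (50.6% of the T0 members) common to both. Class sizes depend on the TMM adjustment and were not counted with raw library totals. In the classes from 0.1 to 100 CPM between 64.4% and 69.4% of the T0 members stayed. Below 0.1 CPM, where the classes rest on very few counts, 766 of 3497 (21.9%) stayed.

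**Figure D1:**
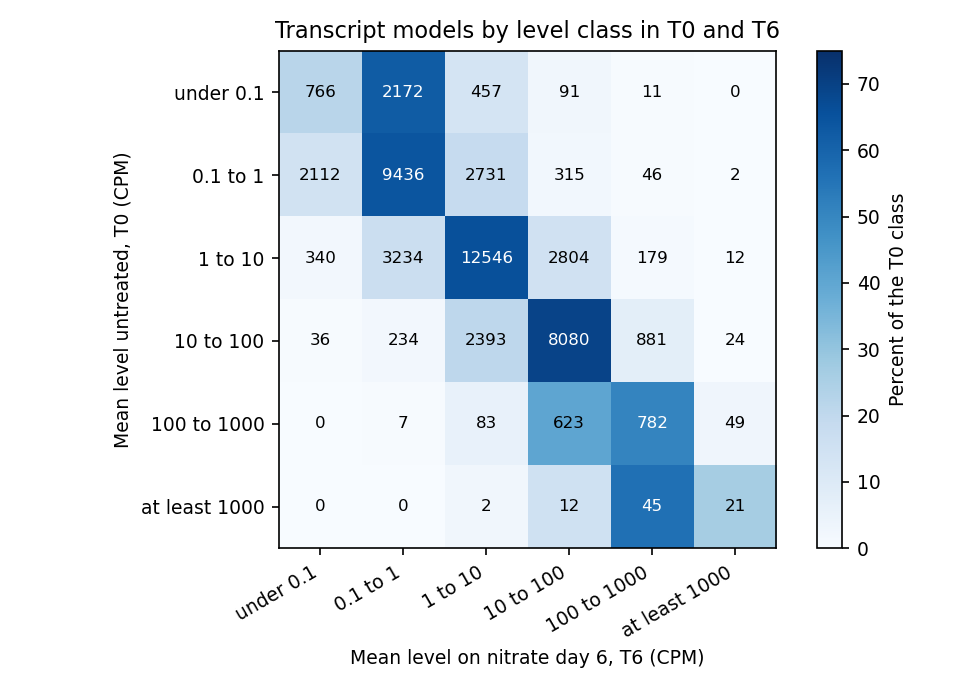
Number of transcript models in each pair of level classes, by mean CPM in T0 (rows) and in T6 (columns), with shading for the percent of each T0 class. The diagonal holds 31631 models, and in the bottom row only 21 of 80 models remain in the class of at least 1000 CPM.

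The share of all counts held by each level class changed far less than its membership. Models of at least 1000 CPM took 23.3%, 22.6% and 21.4% of the counts in the T0 libraries and 21.3%, 21.5% and 18.4% in the T6 libraries, and the groups overlapped. Models between 100 and 1000 CPM took 36.9%, 35.0% and 34.9% in T0 and 41.8%, 40.6% and 41.7% in T6. All T6 libraries were above all T0 libraries in this class. Membership of a class rests on TMM-adjusted levels, and whether this separation holds with raw library totals was not tested. Models between 10 and 100 CPM held 33.9 ± 1.38% in T0 and 31.7 ± 1.09% in T6, and those from 1 to 10 CPM 7.38 ± 0.52% and 6.01 ± 0.39% (SD, n = 3). Below 1 CPM the shares were under 1% in both groups.

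Switches between absence and presence were counted with a fixed rule. A model was off in a group when all 3 libraries were under 0.1 CPM and on when all 3 were at 1 CPM or more, which is 30.3 to 39.5 counts. By this rule 266 models were switched on between T0 and T6 and 162 were switched off, whereas 26154 models were on in both groups and 167 were off in both. The rule uses the T0 and T6 libraries, so that all 266 and all 162 were also called follows from it. At the boundary, 103 switched-on models had their lowest T6 library between 1 and 2 CPM, and 167 further models that were off in T0 had it between 0.5 and 1 CPM. For the switched-off models these numbers were 76 and 162. Without any 1 of the 6 libraries the rule gave 285 to 352 models on and 174 to 226 off. Leaving out a library removes a condition of the rule, which favours higher counts.

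The switched-on models reached a median of 4.12 CPM in T6, from 1.08 to 263 CPM, and 69 of them were at 10 CPM or more. Of the 266, 100 had no counts in any T0 library. Against a floor of 3 counts per library these 100 were at least 13.7-fold to at least 2359-fold higher, with a median bound of 48.2-fold. The switched-off models had stood at a median of 3.40 CPM in T0, from 1.07 to 69.5 CPM, and 23 were at 10 CPM or more. Of the 162, 41 had no counts in any T6 library, and their lower bounds ran from 11.5-fold to 748-fold lower, with a median of 30.6-fold. With no level threshold, 459 models went from 0 counts in T0 to counts in every T6 library and 293 went the other way. These numbers were not matched for depth. T6 replicate 1 had 43808258 counts, beside at most 37343752 in a T0 library, and the other T6 libraries had 36131601 and 35091859.

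Most switched models were the only model of their locus, 87.2% of those on and 87.0% of those off, beside 68.1% of all tested models. For none of the 34 switched-on and 21 switched-off models with a partner at their locus was a partner on in both groups. The median length was 718 bp for the switched-on and 1043 bp for the switched-off models, beside 1223 bp in all tested models. All counts were whole in 23.3% of the switched-on and 37.0% of the switched-off models, beside 21.4% of all tested models. The remaining models share reads with others, so the number of separate genes behind each set may be smaller.

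The libraries of other days, which the rule did not use, place these switches in time. Of the 266 switched-on models, 1 was on in all libraries of T1, 27 in T2, 70 in T3, 99 in T4 and 180 (67.7%) in T5. Their median level was 0.05 CPM in T1, 0.20 CPM in T2, 0.62 CPM in T3, 1.02 CPM in T4 and 2.74 CPM in T5. One day after removal 195 (73.3%) were on in R1 and none was off there. In R5, 34 were still on (12.8%), 26 were off again (9.77%) and the median was 0.48 CPM. The loss ran over the same days. Of the 162 switched-off models, 111 (68.5%) were still on in T1, 49 in T2, 10 in T3, 6 in T4 and 0 in T5, where 69 (42.6%) were off. In R1 84 (51.9%) were off and none was on. In R5 86 (53.1%) were on again, 2 were off and the median was 1.74 CPM.

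**Figure D2:**
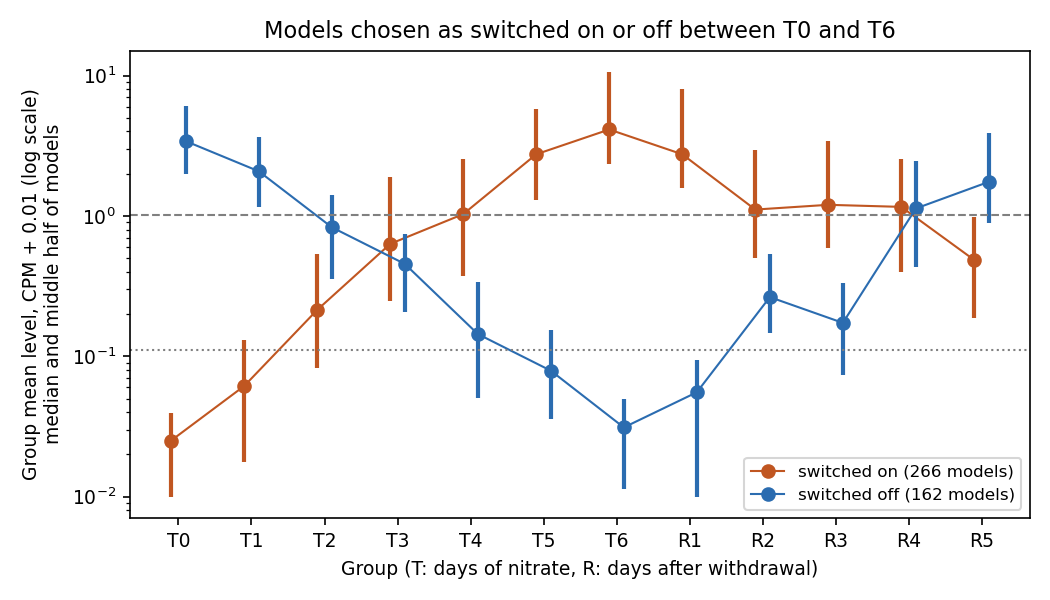
Level of the 266 switched-on and 162 switched-off models in each group, as group mean CPM + 0.01 on a log scale, with points for the median and bars from the lower to the upper quartile. Dashed and dotted lines mark 1 and 0.1 CPM; T0 and T6 chose the models, and the medians of the other groups pass step by step from one level to the other on the nitrate days.

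The same rule applied to other nitrate days gave smaller numbers. Against T0, which all these comparisons share, it gave 1 model on and 0 off in T1, 29 and 11 in T2, 107 and 92 in T4, and 199 and 110 in T5. In R1 it gave 219 on and 163 off, of which 195 and 84 were among the models switched in T6. No model was switched on or off between T6 and R1, and 3 on and 0 off between T5 and T6.

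The exchange of counts measures the change without any call. It is the percent of counts that would have to pass to other models to turn one library's composition into another's. The 9 pairs of a T0 and a T6 library differed by 44.7% to 51.5% of their counts, with a mean of 48.1%. Pairs within T0 differed by 5.99%, 7.45% and 9.72%, and pairs within T6 by 8.81%, 10.6% and 10.7%. Every pair between the groups thus lay far above every pair within a group (exact permutation p = 0.1, two-sided, the smallest that 3 against 3 allow). T0 replicate 3 was nearest to each T6 library, at 47.3%, 48.9% and 44.7%, and T6 replicate 3 was nearest to each T0 library.

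By mean exchange T0 and T6 were the farthest apart of the pairs of groups that include either. The mean exchange with T0 was 14.0% in T1, 26.2% in T2, 32.9% in T3, 38.4% in T4, 43.4% in T5 and 44.7% in R1, and 21.4% in R5. All these values share the T0 libraries. The range of pairs in T5, 39.7% to 47.0%, overlapped that of T6. With T6 the mean exchange was 16.6% in T5 and 11.6% in R1, where the pairs ranged from 8.83% to 14.0% and so overlapped the pairs within T6.

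**Figure D3:**
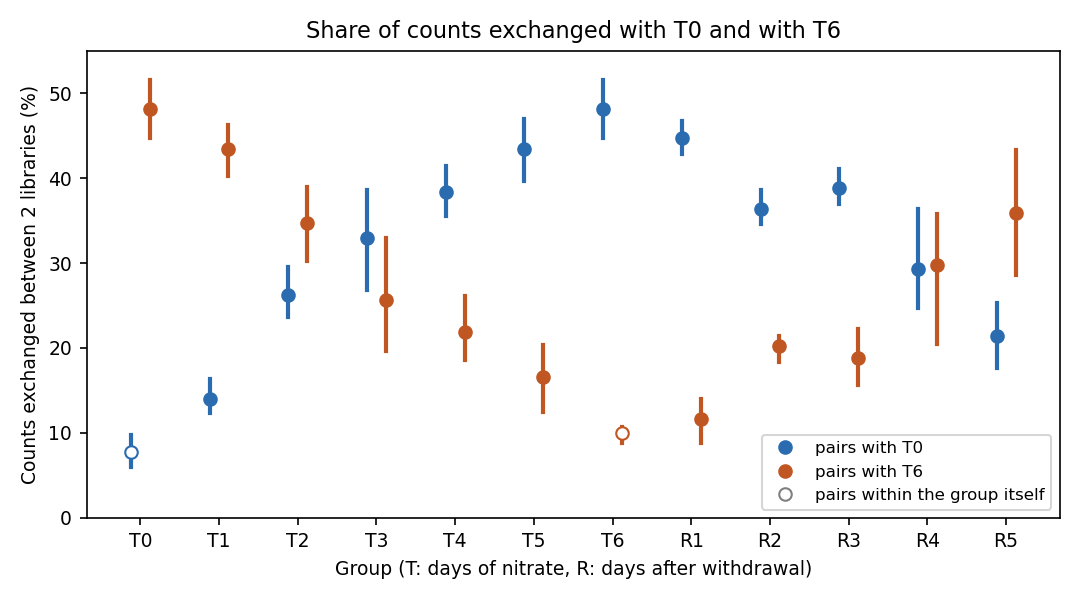
Percent of counts exchanged between libraries of each group and those of T0 (blue) or T6 (orange), with points for means and bars for the range over pairs; open points are pairs within T0 or within T6. Pairs of T0 with T6 sit between 44.7% and 51.5%, above the pairs within either group.

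Most of the exchange lay in models that were on in both groups, and the switched sets held few counts to exchange. In the T6 libraries the switched-on models held 0.261% to 0.288% of the counts, and in the T0 libraries the switched-off models 0.0980% to 0.127%. The share of counts held by the models on in both groups is not given here as a base. In the group means 47.7% of the counts changed model, with 22378 models gaining share and 28128 losing it. Shares are of all counts without TMM adjustment, so a loss of share need not be a lower adjusted level. Called risers held 91.4% of the gain and called fallers 78.2% of the loss, with both sets chosen in these libraries. The 266 switched-on models brought 0.579% of the gain and the 162 switched-off models 0.241% of the loss. The 26154 models that were on in both groups held 80.4% of the gain and 95.5% of the loss. Of these 34.2% were called, beside 39.7% of all tested models. By level, 37.0% of the loss came from models between 100 and 1000 CPM in T0 and 36.2% from those of at least 1000 CPM. Of the gain, 47.0% came from models between 100 and 1000 CPM in T6 and 31.3% from those of at least 1000 CPM.

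The loss was concentrated in fewer models than the gain at the top of the list. The 10 models that lost most gave up 10.5 percentage points, 21.9% of the loss, whereas the 10 that gained most took 6.43 points, or 13.5% of the gain. The top 100 carried 41.4% of the loss and 33.0% of the gain, and the top 1000 carried 72.0% and 73.4%. On each side 50% was reached with 205 losing and 289 gaining models.

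**Figure D4:**
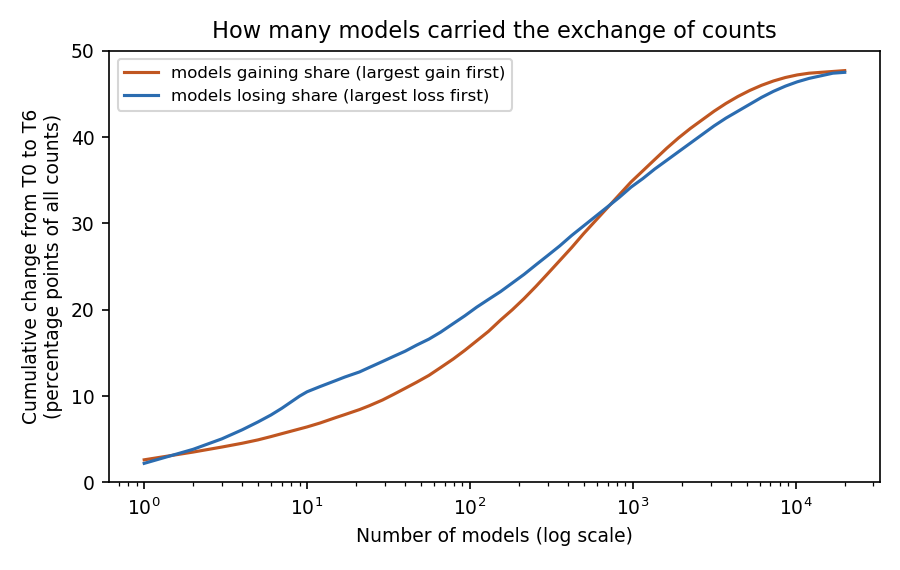
Cumulative change of the share of counts from T0 to T6 in percentage points, with models ranked by the size of their own gain or loss on a log axis. Among the first 100 models the losses (19.7 points) lie above the gains (15.7 points), and by 1000 models the curves have crossed, at 34.3 and 35.0 points.

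Called models, 39.7% of those tested, held a larger share of the counts than the others in every library of T0 and T6. The 10279 called risers took 9.20%, 10.0% and 10.2% of the counts in T0 and 53.5%, 55.6% and 51.0% in T6. The 9777 called fallers took 46.4%, 43.6% and 42.0% in T0 and 6.70%, 6.02% and 7.38% in T6. These sets were chosen in the same libraries, so the values describe them and test nothing. In the libraries of T5 the risers were at 44.9 ± 1.89% and the fallers at 9.31 ± 0.57%, and in R1 at 48.0 ± 0.69% and 7.96 ± 0.29% (SD, n = 3). Models that were not called held 44.4%, 46.4% and 47.8% in T0 and 39.8%, 38.4% and 41.6% in T6. TMM factors, by which this lower share is taken into account in the levels, were 0.895 to 1.06 in T0 and 0.810 to 0.901 in T6.

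The lists of the most abundant models had little in common. By mean share of counts 1 of the 10 most abundant models of T0 was also among the 10 of T6, 25 of 100 (25.0%), 390 of 1000 (39.0%) and 3142 of 5000 (62.8%). Single libraries of 1 group shared between 77.0% and 93.0% of their 100 most abundant models, and libraries of different groups between 18.0% and 25.0%. Of the 10 most abundant models of T0, 9 were called lower in T6, and of the 100, 70 were called lower and 3 higher. Of the 10 most abundant of T6, 7 were called higher, and of the 100, 73 were higher and 1 lower. The lists were ranked in the same libraries that gave the calls, which favours falls in the T0 lists and rises in the T6 lists. For scale, the call rule gave falls in 19.4% and rises in 20.4% of the 50475 models. With a mean of 100 to 1000 CPM over the 36 libraries these shares were 19.0% and 38.5%. At 1000 CPM or more they were 29.8% and 36.8%. The 100 most abundant models of T0 had a median rank of 446 in T6, and those of T6 a median rank of 487 in T0.

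Among the models whose share changed most, chosen 1 per locus, the leading riser was Lj3g3v1642060.1. It stood at 0.726, 2.41 and 62.2 CPM in T0 and at 33085, 42196 and 18429 CPM in T6, passing from rank 7194 to rank 1 by share of counts. The choice of each model given by ID required a call and no overlap of libraries, so its separation and adjusted p are description only. Replicate 3 was the highest T0 library and the lowest T6 library. Its fitted log2 difference was 10.48 ± 1.44 (SE, adjusted p by edgeR = 3.52e-07) and 14.18 without T0 replicate 3. Only 8.33% of its count values were whole, so it shares reads with other models.

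Lj0g3v0000069.1 came second and showed the same order of libraries. Its levels were 0.194, 0.591 and 16.3 CPM in T0 and 10396, 14426 and 7225 CPM in T6, and all its counts were whole. It passed from rank 17441 to rank 2, with a fitted log2 difference of 10.86 ± 1.32 (SE, adjusted p by edgeR = 4.08e-08) that was 14.61 without T0 replicate 3. The 571 models that were at least 128-fold higher in T6 summed to 91.9, 109.7 and 268 CPM in the T0 libraries. Without these leading risers the other 569 summed to 90.9, 107 and 189 CPM, again highest in replicate 3. The 266 switched-on models, which the rule requires to be low there, summed to 4.40, 4.88 and 5.31 CPM.

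The leading fall was that of Lj5g3v0035290.1, the most abundant model of T0. It stood at 28317, 24691 and 18473 CPM in T0 and at 1652, 847 and 1220.2 CPM in T6. Its share of all counts went from 2.31% to 0.105% and its rank from 1 to 73 (log2 fold change -4.26 ± 0.34, edgeR adjusted p = 1.34e-11). The other model of its locus averaged 12591 CPM in T0 and 164 CPM in T6 (log2 fold change -6.26 with an edgeR adjusted p of 9.25e-13). No count value of Lj5g3v0035290.1 was whole, so it shares reads with 1 or more other models, and which these are was not tested.

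Lj5g3v0465970.1 fell further, from 19091, 16999 and 14480.3 CPM in T0 to 120.1, 46.5 and 81.5 CPM in T6. It dropped from rank 2 to rank 2514 by share of counts, with a fitted log2 difference of -7.67 ± 0.53 (SE, adjusted p by edgeR = 1.40e-12). In R1 it was at 83.9 ± 21.9 CPM and in R5 at 13149 ± 5219 CPM (SD, n = 3). In T1 Lj5g3v0035290.1 was still at 23592 ± 2504 CPM and Lj5g3v0465970.1 at 12291 ± 1353 CPM (SD, n = 3).

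By several measures of diversity the libraries of T0 and T6 overlapped, and by others they did not. The effective number of models, the number of equally abundant models that would give the same Shannon entropy, was 4845, 5338 and 5796 in T0 and 5679, 5631 and 6785 in T6. The groups overlapped, and the mean difference of 705 models did not pass an exact permutation test (p = 0.3, two-sided, n = 3 in each group). Without any 1 library this difference was 328 to 939.8. In shares of FPKM, which count a long model less, the effective number was 2377, 3431 and 3787 in T0 and 4959, 4948 and 5843 in T6, a difference of 2052 with all T6 libraries higher (exact permutation p = 0.1, the smallest possible). At equal depth, with every library thinned to 34194054 counts, 48374, 48609 and 48944 models had at least 1 read in T0 and 48481, 48673 and 48843 in T6 (exact permutation p = 0.9, n = 3). Nearly all of the 50526 models were detected in both groups, so this measure had little room to differ, and at a minimum of 10 reads the difference was -964 (exact permutation p = 0.2). The number of models at 1 CPM or more was 32223, 32264 and 32281 in T0 and 31922, 32031 and 32270 in T6, again with overlap (exact permutation p = 0.3). It rests on TMM-adjusted levels and was not counted with raw library totals. With so few libraries these p-values do not show that diversity was equal.

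Among the measures that give weight to abundant models, those of the 10 and the 100 most abundant separated the groups. The 100 most abundant models of each library held 25.4%, 24.6% and 23.5% of the counts in T0 and 20.7%, 21.1% and 17.9% in T6. The 10 most abundant held 11.6%, 11.4% and 10.3% in T0 and 7.23%, 8.50% and 5.57% in T6. All T6 libraries were lower on both measures (exact permutation p = 0.1 each, the smallest possible). The number of models at 10 CPM or more was 13357, 13280 and 13063 in T0 and 13897, 13933 and 13996 in T6, with all T6 libraries higher (exact permutation p = 0.1). This number depends on the TMM factors, 0.810 to 0.901 in T6 and 0.895 to 1.06 in T0, since a lower factor raises CPM. It was not counted with raw library totals. The inverse Simpson index, which weights abundant models strongly, was 488, 515 and 626 in T0 and 737, 515 and 1245 in T6, with overlap (exact permutation p = 0.2). Similarly, the single most abundant model took 2.54%, 2.44% and 1.96% in T0 and 2.68%, 3.53% and 1.66% in T6, and the 1000 most abundant held 51.0% of the counts on average in T0 and 49.8% in T6, both with overlap (exact permutation p = 0.7 and 0.5). Over the 11 measures of composition tested the lowest exact permutation p after Benjamini-Hochberg adjustment was 0.275, and at 3 against 3 none could pass 0.05.

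By effective number, nitrate days 2 to 4 were more diverse than either end. The effective number was between 7072 and 8719 in the 9 libraries of T2 to T4, above every T0 and every T6 library. The 100 most abundant models held between 16.3% and 19.9% of the counts there, below every T0 library but overlapping T6. After removal the effective number was 6271 to 6620.5 in R1, inside the range of T6, and 5888 to 7753 in R5.

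**Figure D5:**
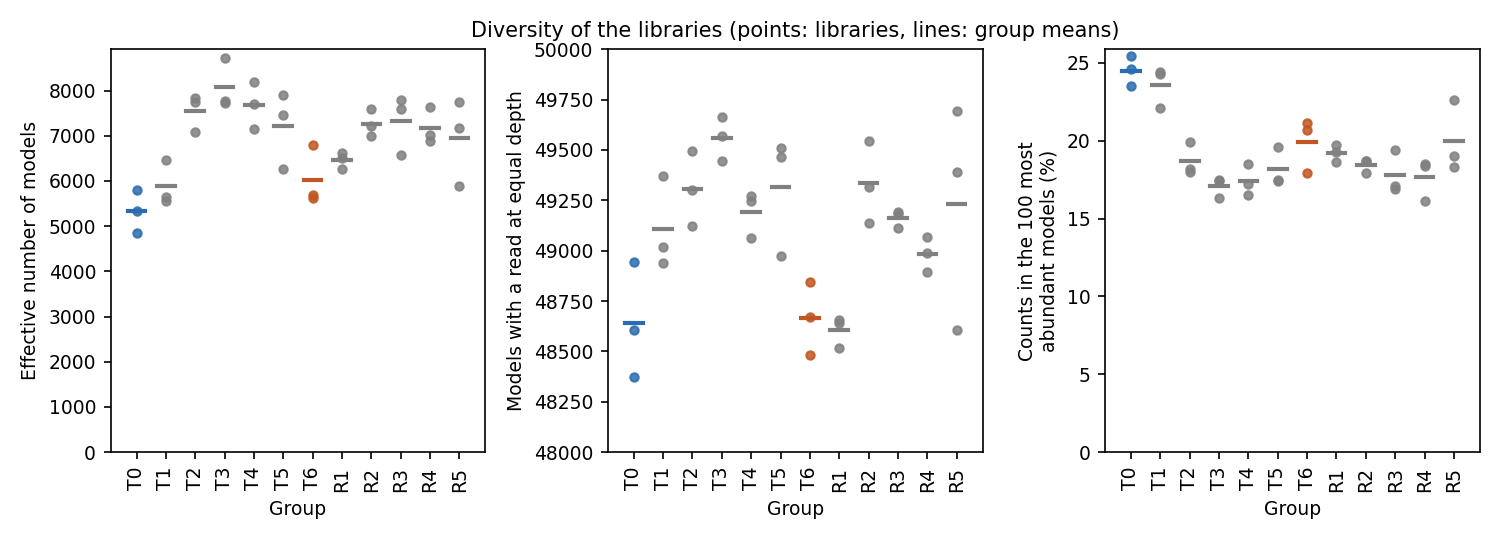
Effective number of models, number of models with at least 1 read at equal depth (axis not from 0) and percent of counts in the 100 most abundant models, for each library (points) with group means (lines). T0 and T6 overlap in the first pair of panels, at 4845 to 5796 and 5631 to 6785 effective models, and are apart in the last, at 23.5% to 25.4% and 17.9% to 21.1%.

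Calls were found at similar rates across the numbers that follow Lj in the IDs. These numbers are taken from general knowledge of the naming to stand for chromosomes, with 0 for sequence not placed on one, and the files do not state it. Over the numbers 0 to 6 the called risers made up between 18.8% and 22.7% of the tested models and the called fallers between 17.6% and 21.2%. Of 6895 loci with more than 1 tested model, 2667 held a called model, beside 17042 of all 41260 tested loci. All models were called higher at 1137 loci and all lower at 1085. At 10 loci (0.145%) 1 model was called higher and another lower. With counts summed per locus, 40.6% of 41263 loci were called, 8445 higher (20.5%) and 8296 lower (20.1%).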

How the data were processed

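The deposited values were estimated counts and FPKM per transcript model in 36 libraries. Per the submitters' processing notes, the authors trimmed reads with fastp 0.22.0, aligned them with HISAT2 and counted them with featureCounts; no build, annotation or strand setting is given in the sources used here. The smallest row total in the deposited table is 51 counts. The deposited FPKM values served to derive model lengths (from the library with the highest FPKM, at least 0.1) and as an alternative scale.

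Estimated counts were rounded and fitted with edgeR 4.0.16 in R 4.3.3 (TMM, filterByExpr, glmQLFit and glmQLFTest) in 1 model of all 36 libraries, with T6 against T0 as the contrast. Models were called at a 2-fold or larger difference with p under 0.05 after Benjamini-Hochberg adjustment over all models. DESeq2 1.42.0 was an alternative. Composition was computed from unrounded counts with Python 3.11.15. Thinned richness is the hypergeometric expectation. Single values per library were compared by exact permutation over all divisions of the 6 libraries. Bounds cover counting error only.

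The fit was tested on simulated data for T6 with T0 (50475 models): 26 of 100 models changed 2-fold and 93 of 100 changed 4-fold were called, and 3 unchanged models were called. A true change of 2-fold lies on the limit of a call. Only these few models were changed, in both directions and at 1 CPM or more, whereas 39.7% of the models were called in the data. The simulated rates therefore do not carry over to this comparison. The 4 models given by ID are the called models with the largest change in share of counts, 1 per locus, with no overlap of libraries. Members, level rules and lists were chosen with earlier results of these data known. The labels state no pairing by replicate number. Deviations of same-numbered T0 and T6 libraries, over all tested models, correlated at 0.013, -0.003 and 0.019. Most of these models have low counts, so these values cannot exclude a pairing.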

Additional observations from a re-analysis of the deposited data

How the results depend on the processing

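The count of called models lay between 19070 and 20195 without any 1 of the 6 libraries, and was 20075 with RLE size factors, 20064 without a filter, 20292 by DESeq2, 18226 in a fit of the 6 libraries alone and 16741 on counts summed per locus. With the replicate number as a block it was 19930, in a design where the labels state no pairing. Leaving out a library lowered the median log2 fold change of all models by 0.06 to 0.12, and risers then numbered 9002 to 9581 and fallers 9897 to 10614; directions are relative to that centre.

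The switch counts ran from 237 to 282 on and from 133 to 200 off over other thresholds, scales and units. They were 237 on and 187 off with CPM from raw library totals, and 253 and 200 in deposited FPKM. With thresholds of 0.05 and 0.5 CPM they were 255 and 133, and with 0.2 and 2 CPM 282 and 166. Counts summed per locus gave 241 and 143, and 1 row kept of identical rows gave 262 and 161. The exchange was 46.0% without the 10 most abundant models, 50.4% in shares of FPKM, and 47.2% to 49.2% without any 1 library. The difference in the share of the 100 most abundant models was -2.63 points without the 10 most abundant models and -11.6 points in shares of FPKM, and lay between -5.23 and -3.61 without any 1 library. The difference in effective number was 2052 in shares of FPKM (exact permutation p = 0.1) and 328 to 939.8 without any 1 library. The difference in models detected at equal depth, 23.3, had no stable sign: it was -0.755 without the 10 most abundant models, -964 at a minimum of 10 reads, and -111 to 174 without any 1 library. The cause of these moves was not tested. Depth limits statements on models under 0.1 CPM, which stand for at most 3.95 counts.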

Other observations

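Neighbouring loci were often called in the same direction. With loci ordered by the number in their ID within each of the numbers 1 to 6 after Lj, both read as position from general knowledge of the naming and not from the files, the locus next to a called riser was itself called higher in 43.5% of 5547 cases, where 20.8% of all second loci were. Next to a called faller 37.9% of 5567 loci were lower, where 20.9% of all were. The neighbour was called in the opposite direction in 13.3% and 12.5% of cases, below the 20.9% and 20.8% over all pairs. Neighbouring copies can share reads. Among the 2988 pairs in which both loci held only whole counts, the shares were 33.0% beside 18.9% for risers and 30.8% beside 25.3% for fallers. These values are a description over loci, which are not replicates, and were given no test.

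Short models were higher more often than long ones. In the shortest of 4 equal length classes, up to 662 bp, 23.0% were called higher and 17.2% lower, with a median log2 fold change of 0.145. In the longest class, from 1998 bp, these values were 18.5%, 20.0% and -0.00332.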
